A study of Mus musculus with 23 samples.

Results

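Fatty acid oxidation genes and known targets of PPARα were followed in the ileum of mice given the PXR agonist pregnenolone 16α-carbonitrile (PCN). The 36 genes were taken from a fixed list and matched by gene name to a mouse expression array of 56605 non-control probes, with the brightest probe of each gene over all arrays used for its values. These names are few beside the 24176 gene names with a tested probe, so counts of these genes are set against all 37591 tested probes. Only probes whose signal stood well above background in 50% or more of the arrays of some group entered the tests, and 34 of the 36 genes did.

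The series set genes that respond to the pregnane X receptor, PXR, in liver beside those in intestine, and the ileum was analysed here. Male mice in 4 groups were used here, all of C57BL/6J background: WT CONT (n = 6), WT PCN (n = 5), Pxr-/- CONT (n = 6) and Pxr-/- PCN (n = 6). PCN was injected intraperitoneally in corn oil at 100 mg/kg once a day for 4 days, and CONT mice received the oil. Mice were killed 6 h after the last injection. The labels call them fed. The study's own text gives free access to the diet and calls mice at the time of killing, 6 h after lights on, physiologically semi-fasted. No imposed fast is described for these mice. Mice of both genotypes were acclimatised for 2 weeks. WT mice were 6 weeks old when bought, and the study's text gives no age for the Pxr-/- mice. The Pxr-/- line, backcrossed to the same strain, came from a colony kept in the laboratory's own facility for 10 years, whereas WT mice were bought. Genotype and breeding origin therefore cannot be told apart. Each array held RNA of 1 mouse, and 2 wash batches each held all 4 groups.

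The labels were checked first. Nr1i2, which encodes PXR, gave normalized log2 signals, the scale of all levels below, from 11.57 to 12.53 in WT mice and from 11.38 to 12.27 in Pxr-/- mice, so the probe still gave signal in Pxr-/- tissue and did not separate the genotypes. Cyp3a11, a classical PXR target, lay between 11.01 and 12.51 in WT PCN and between 6.17 and 7.08 in Pxr-/- PCN. The ileal markers Fabp6 and Slc10a2 were well above background on all 23 arrays. Marker lists of other cell types were read beside the results, by genes with an adjusted p of at most 0.05 for PCN in WT and in Pxr-/- mice. These were 0 and 0 of 6 for all enterocytes, 0 and 0 of 4 for ileal enterocytes, 0 and 0 of 4 for proximal gut, 0 and 0 of 6 for adipocytes, 0 and 1 of 5 for endothelium, 0 and 2 of 6 for macrophages, 2 and 2 of 5 for neutrophils, 0 and 0 of 6 for B cells, and 0 and 2 of 5 for smooth muscle. The neutrophil genes S100a8 and S100a9 rose in both genotypes. Adipocyte markers varied widely between mice of one group, which a count of adjusted p does not show. Within WT CONT the mean of the 6 ranged from 7.21 to 10.44, with Adipoq from 5.60 to 10.43 and Lep only from 6.57 to 7.10. The part of these cells in the values below was not tested.

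Fatty acids enter the enterocyte by transport proteins, are bound in the cytosol, and reach the mitochondrial matrix as carnitine esters, where beta-oxidation shortens them. Peroxisomes shorten very long chains and microsomal CYP4A enzymes hydroxylate the far end of the chain. PPARα, a nuclear receptor that binds fatty acids, drives many of these genes from DNA sites made of a direct repeat of the half-site AGGTCA spaced by 1 base, called DR1, and PXR prefers repeats with wider spacing such as DR4.

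The one member promoter with a DR1 sequence is shown because it holds the kind of site that PPARα is known to bind. The RefSeq window from 250 bases before to 50 bases after the start site was given for 29 of the 36 members. The DR1 letters, the half-site AGGNCA repeated once with 1 base of any kind between and read on both strands, occurred in 1 of these 29, Fabp1, and in 0.381% of all 32851 windows. The DR4 letters, AGNTCA repeated once after 4 bases of any kind, occurred in 0 of 29 and in 0.125% of all windows. The Fabp1 window lies at chr6:71199629-71199928 on the + strand of GRCm38.p6, with the DR1 letters, on the opposite strand, in capitals and starting 67 bases before the start site:
Fabp1: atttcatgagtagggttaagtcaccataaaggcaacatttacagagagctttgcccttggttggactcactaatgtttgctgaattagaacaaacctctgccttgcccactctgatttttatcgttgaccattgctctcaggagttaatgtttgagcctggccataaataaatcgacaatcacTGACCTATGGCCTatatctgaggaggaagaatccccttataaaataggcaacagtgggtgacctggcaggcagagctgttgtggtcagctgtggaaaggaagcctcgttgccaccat
A match to letters is a description and not a measured binding site, and no match says only that the letters are not in this window.

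None of the 34 tested genes was called in any comparison. A call needed an adjusted p of at most 0.05 in limma, with Benjamini-Hochberg adjustment over all tested probes, and a change of more than 1.5-fold. For PCN in WT mice 0 of 34 members were called, where 0.689% of all tested probes were, and 3 of 34 had an unadjusted p of at most 0.05, against 11.8% of all probes. For PCN in Pxr-/- mice 0 of 34 were called against 0.939% of all probes. Of the 33 members well above background on all arrays, 5 had an unadjusted p of at most 0.05, against 19.5% of all probes. The remaining tested member, Cyp4a10, is left out of that count. Its probe entered the tests only through Pxr-/- CONT, which fixes the direction of its difference, so its p-value cannot be read as a test. The response to PCN did not pass the test as differing between genotypes for any member, with 0 of 34 called against 0.0771% of all probes. Between genotypes 0 of 34 were called without PCN, against 0.141% of all probes, and 0 of 34 with PCN, against 0.364%. Shares this near the background are not a result about these genes. Group sizes of 5 and 6 limit the precision, and the intervals below say how large a change the data allow.

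**Figure D1:**
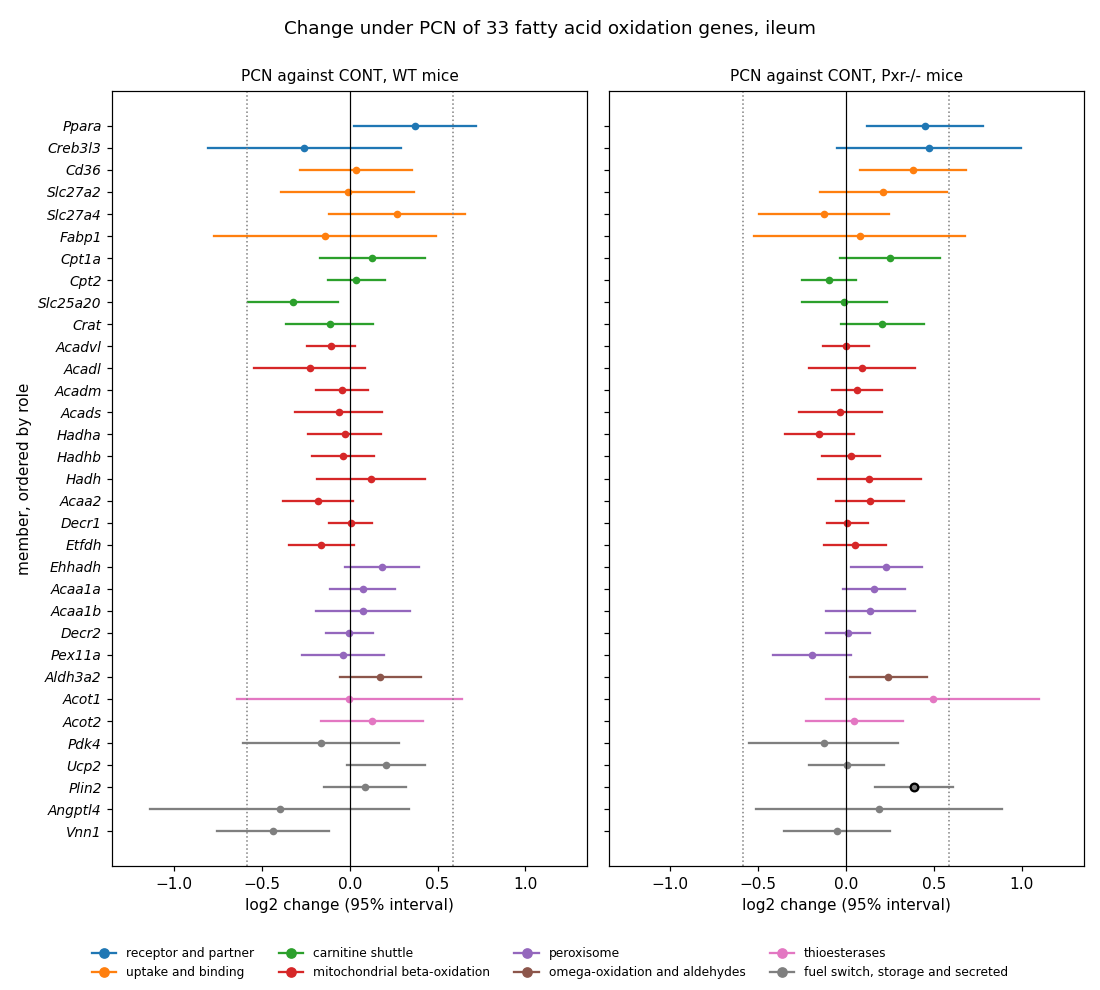
Log2 change under PCN (x axis) with its 95% interval from the limma fit for the 33 members measured above background on all 23 arrays (y axis, ordered by role), in WT mice (left) and Pxr-/- mice (right). Dotted lines mark a 1.5-fold change in either direction and the black outline marks Plin2, the only member with an adjusted p of at most 0.05; most intervals lie between the dotted lines.

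The intervals were narrow for most of the genes. Of the 33 members well above background on all 23 arrays, 25 had a 95% interval for PCN in WT mice wholly inside a 1.5-fold change in both directions. That is a lower share than the 90.0% of all tested probes. In Pxr-/- mice this held for 26 of 33, against 89.1% of all probes. The median change of the 33 genes was -0.01 on the log2 scale in WT mice and 0.08 in Pxr-/- mice, beside -0.02 and -0.01 for all tested probes. In WT mice 14 of the 33 changes were above 0, against 44.6% of all probes, and in Pxr-/- mice 24 of 33, against 46.8%. That last count was 18 of 33 when arrays were centred on their medians instead of quantile normalized. These genes come from the same mice and are not independent of each other.

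Ppara encodes the receptor itself. Its log2 signal ranged from 10.97 to 11.50 with a median of 11.33 in WT CONT, and the 5 WT PCN mice gave 11.42, 12.00, 11.62, 11.63 and 11.46. Pxr-/- CONT ranged from 10.69 to 11.55 around a median of 11.04, and Pxr-/- PCN from 10.87 to 11.94 around 11.55. PCN mice lay mostly in the upper part of both genotypes' ranges, and the groups overlapped. The change was 0.37 ± 0.17 (SE) in WT mice (95% interval 0.03 to 0.72; adjusted p = 0.38, limma) and 0.45 ± 0.16 in Pxr-/- mice (0.12 to 0.78; adjusted p = 0.12), neither past the test. Within wash batch 1 the changes were 0.17 and 0.16, and within wash batch 2 they were 0.55 and 0.73. The outcome in Pxr-/- animals was the same in 22 of 23 fits without 1 mouse. Without Pxr-/- PCN replicate 6, the lowest mouse of that group at 10.87, the change was 0.60 with an adjusted p of 0.019 in limma, and Ppara was called. The second Ppara probe gave 0.28 in WT mice and 0.56 in Pxr-/- mice (adjusted p = 0.52 and 0.052, limma). The brighter probe lies at chr15:85632110-85632169 of mm9.

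Creb3l3, a transcription factor of the fasted liver and gut that acts with PPARα, had the largest log2 difference between untreated genotypes of the 33 genes, and it did not pass the test. WT CONT mice lay between 12.99 and 14.07 (median 13.66), and Pxr-/- CONT mice between 12.10 and 13.45 (median 13.15). The ranges overlapped, and the difference was -0.69 ± 0.25 (SE; adjusted p = 0.36, limma). With PCN the genotypes differed by 0.04 ± 0.27. The change under PCN was -0.26 ± 0.27 in WT mice and 0.47 ± 0.25 in Pxr-/- mice (adjusted p = 0.78 and 0.31, limma), and the difference between these, 0.73 ± 0.37, did not pass the test either (adjusted p = 1.00).

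Genes of fatty acid uptake and binding gave changes in WT mice from -0.14 for Fabp1 to 0.27 for Slc27a4, and 0 of 4 were called in any comparison. Cd36, a scavenger receptor that takes up long-chain fatty acids, ranged from 7.08 to 7.91 (median 7.40) in WT CONT, and WT PCN mice gave 7.48, 7.62, 7.09, 7.60 and 7.47. In Pxr-/- mice it ranged from 6.96 to 7.55 (median 7.11) without PCN and from 7.08 to 7.75 (median 7.73) with PCN. WT groups shared the same range, while most Pxr-/- PCN mice were above all Pxr-/- CONT mice. The changes were 0.04 ± 0.15 (SE) and 0.38 ± 0.15 (adjusted p = 0.97 and 0.15, limma), and the difference between them was 0.34 ± 0.21 (adjusted p = 1.00, limma).

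Fabp1, the fatty acid binding protein of liver and upper gut whose promoter is printed above, varied widely between mice of one group. WT CONT ranged from 10.33 to 11.94 (median 11.14), WT PCN mice gave 10.05, 11.02, 11.26, 10.71 and 11.76, Pxr-/- CONT ranged from 10.38 to 11.50 (median 10.75) and Pxr-/- PCN from 10.36 to 11.68 (median 10.68). All groups overlapped almost fully. The change under PCN was -0.14 ± 0.30 (SE) in WT mice and 0.08 ± 0.29 in Pxr-/- mice (adjusted p = 0.92 and 0.91, limma). The interval in WT mice ran from -0.77 to 0.49, so the data did not bound a fall to less than 1.5-fold. The fatty acid transporters Slc27a2 and Slc27a4 gave PCN values between -0.13 and 0.27, with adjusted p of 0.53 or more in limma. The second Slc27a4 probe gave 0.30 in WT mice and 0.08 in Pxr-/- mice (adjusted p = 0.38 and 0.79, limma).

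For PCN all 4 genes of the carnitine shuttle had 95% intervals inside a 1.5-fold change in both genotypes. Cpt1a, which makes the carnitine ester and controls entry into the mitochondrion, ranged from 12.91 to 13.22 (median 12.99) in WT CONT, and WT PCN mice gave 13.28, 13.09, 12.71, 13.51 and 13.14. Pxr-/- CONT lay between 12.24 and 13.15 (median 12.91) and Pxr-/- PCN between 12.91 and 13.40 (median 13.07). WT PCN mice fell on both sides of the WT CONT range. The changes were 0.13 ± 0.14 (SE; 95% interval -0.17 to 0.43) and 0.25 ± 0.14 (-0.03 to 0.53), with adjusted p of 0.80 and 0.32 in limma. Slc25a20, the carrier that moves the ester across the inner membrane, gave -0.32 in WT mice (unadjusted p = 0.016, adjusted p = 0.27, limma) and -0.01 in Pxr-/- mice.

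The 10 enzymes of mitochondrial beta-oxidation varied little. On the probes used, all 10 had a 95% interval for PCN inside a 1.5-fold change in each genotype. The changes ran from -0.23 to 0.12 in WT mice and from -0.15 to 0.14 in Pxr-/- mice. Further probes gave 0.27 and 0.04 for Hadhb and 0.19 for Etfdh in WT mice, where the probes used were below 0. In Pxr-/- mice they gave 0.18 and -0.10 for Hadhb and 0.01 for Etfdh. Acadm, the medium-chain acyl-CoA dehydrogenase, ranged from 13.41 to 13.65 (median 13.55) in WT CONT, and WT PCN mice gave 13.56, 13.50, 13.56, 13.49 and 13.39. Pxr-/- CONT lay between 13.20 and 13.58 (median 13.50) and Pxr-/- PCN between 13.38 and 13.58 (median 13.50). Each PCN group lay almost wholly inside the range of its own control. The changes were -0.05 ± 0.07 (SE; 95% interval -0.19 to 0.10) and 0.06 ± 0.07 (-0.08 to 0.20).

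Hadha, the α subunit of the trifunctional protein that carries out the last steps on long chains, ranged from 10.22 to 10.71 (median 10.42) in WT CONT, and WT PCN mice gave 10.42, 10.71, 10.39, 10.41 and 10.26. Pxr-/- CONT ranged from 10.26 to 10.65 (median 10.38) and Pxr-/- PCN from 10.10 to 10.41 (median 10.28). The groups overlapped, with Pxr-/- PCN mice in the lower part. Its changes were -0.03 ± 0.10 (SE) and -0.15 ± 0.10 (adjusted p = 0.96 and 0.39, limma). Decr1, a reductase for unsaturated chains, had the smallest spread of the 33 genes and intervals of -0.12 to 0.13 and -0.11 to 0.12.

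Among peroxisomal members all 5 PCN intervals lay inside a 1.5-fold change in both genotypes. Ehhadh, the peroxisomal bifunctional enzyme and a strongly PPARα-driven gene in liver, ranged from 9.74 to 10.23 (median 10.17) in WT CONT, and WT PCN mice gave 10.21, 10.28, 10.35, 10.27 and 10.30. Pxr-/- CONT lay between 9.65 and 10.26 (median 9.92) and Pxr-/- PCN between 9.86 and 10.29 (median 10.17). WT PCN mice lay close together, and all but 1 of them were above every WT CONT mouse. The changes were 0.18 ± 0.10 (SE; 95% interval -0.03 to 0.40; adjusted p = 0.51, limma) and 0.23 ± 0.10 (0.03 to 0.43; adjusted p = 0.19). Decr2 gave 0.00 and 0.01. Acaa1a and Acaa1b, thiolases whose sequences are very alike, gave 0.07 and 0.08 in WT mice and 0.16 and 0.14 in Pxr-/- mice, and their probes may share signal.

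Of the omega-oxidation genes, Cyp4a10 and Cyp4a14 are the best known responders to PPARα ligands in mouse liver, and both were at or near background here. Cyp4a14 was well above background on 0 of 23 arrays, with log2 signals between 4.69 and 5.12, and was not tested. Cyp4a10 was above background on 3 arrays, all of Pxr-/- CONT, where the 6 mice ran from 4.99 to 7.29 with a median of 5.31. A single mouse was high, and the next highest was at 5.64. The other groups lay between 4.82 and 5.26 (WT CONT), 4.83 and 5.12 (WT PCN) and 4.83 and 5.23 (Pxr-/- PCN). The probe entered the tests only through Pxr-/- CONT, which fixes the direction of any difference from the other groups, so its differences are given as a description. Pxr-/- CONT minus WT CONT was 0.51 on the log2 scale, and 0.18 without the high mouse, replicate 5. Pxr-/- PCN minus Pxr-/- CONT was -0.61, and -0.28 without that mouse. Within wash batch 2, which does not hold the high mouse, these differences were -0.01 and -0.05. Aldh3a2, which oxidises fatty aldehydes, gave PCN values of 0.17 in WT and 0.24 in Pxr-/- mice (adjusted p = 0.59 and 0.21, limma).

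Acot1 and Acot2 release fatty acids from coenzyme A in the cytosol and in mitochondria. Acot1 lay between 8.57 and 9.44 in WT CONT, and WT PCN mice lay between 8.24 and 10.35, and its change in WT mice was 0.00 ± 0.31 (SE; 95% interval -0.64 to 0.64). In Pxr-/- mice it was 0.49 ± 0.29 (adjusted p = 0.37, limma). Acot2 gave 0.13 and 0.05. Its level in Pxr-/- PCN was lower than in WT PCN by a difference of -0.38 ± 0.14, which had an unadjusted p of 0.013 and an adjusted p of 0.45 in limma.

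**Figure D2:**
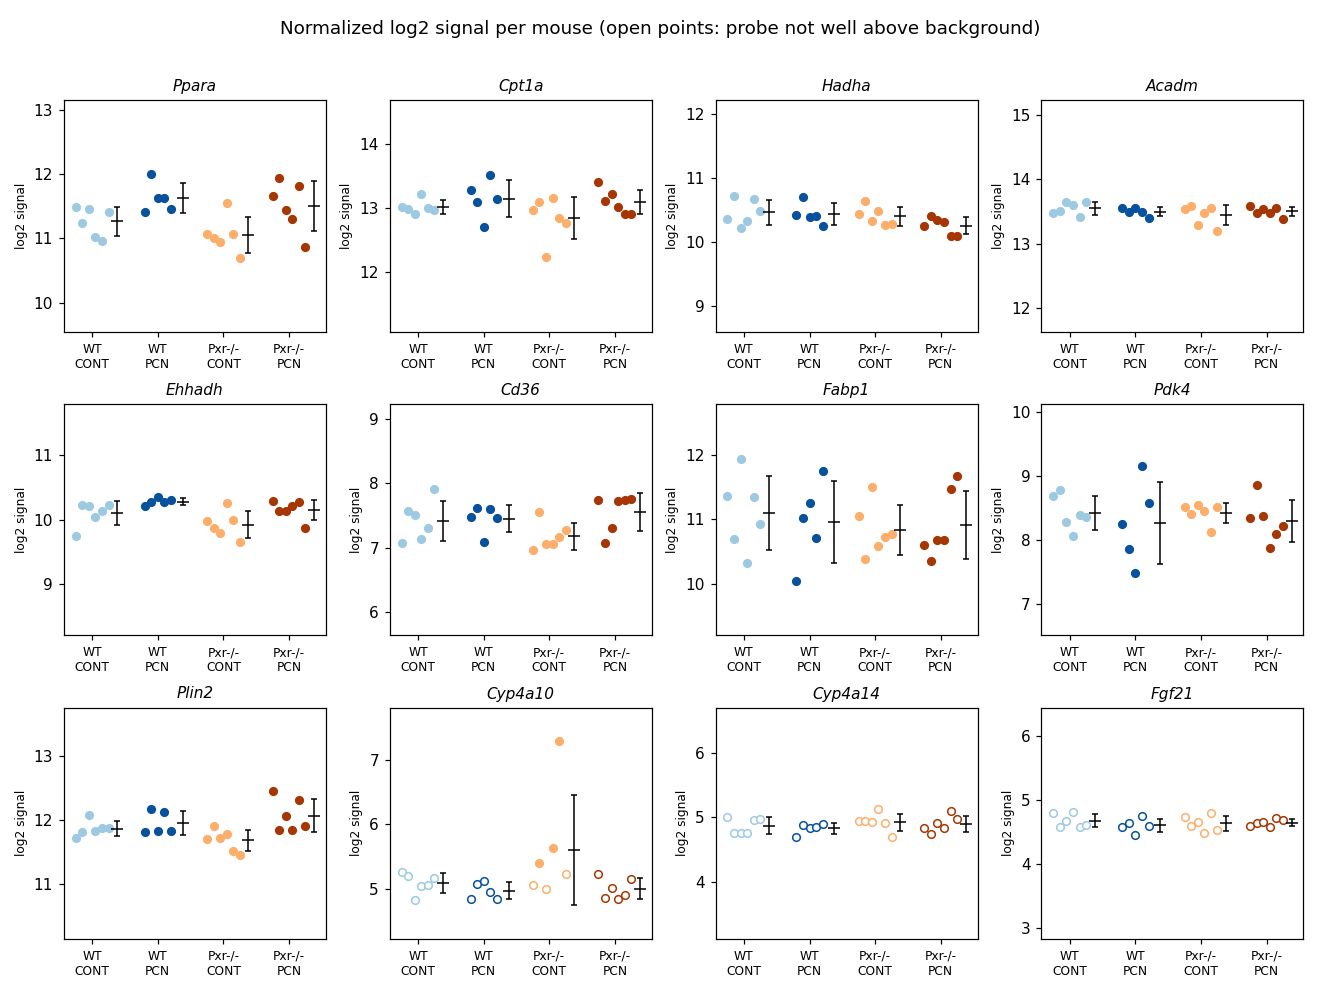
Normalized log2 signal (y axis, each panel spanning the same height) in every mouse of the 4 groups (x axis) for 12 members, with the mean and SD of each group in black. Open points are arrays on which the probe was not well above background: all points of Cyp4a14 and Fgf21, and all but 3 of Cyp4a10.

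Among genes of fuel switching, storage and secretion, Plin2 was the only one with an adjusted p of at most 0.05. Plin2 coats lipid droplets. WT CONT ranged from 11.72 to 12.07 (median 11.85) and WT PCN mice gave 11.81, 12.17, 11.83, 12.13 and 11.82. Pxr-/- CONT ranged from 11.45 to 11.90 (median 11.71), and Pxr-/- PCN from 11.83 to 12.44 (median 11.98). The Pxr-/- groups overlapped by 1 control mouse only, at 11.90. In WT mice the PCN values of 12.17 and 12.13 lay above every WT CONT mouse, and the other WT PCN mice lay within the WT CONT range.

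In Pxr-/- mice the Plin2 change was 0.39 ± 0.11 (SE; 95% interval 0.16 to 0.61; adjusted p = 0.046, limma), under 1.5-fold and so not called. It was the 1 member of 34 with an adjusted p of at most 0.05 in that comparison, where 3.57% of all tested probes had one. The change in WT mice was 0.09 ± 0.11 (adjusted p = 0.84), and the difference between genotypes was 0.30 ± 0.16 (adjusted p = 1.00, limma). The change in Pxr-/- mice was 0.13 within wash batch 1 and 0.65 within wash batch 2. In 13 of 23 fits without 1 mouse the adjusted p rose above 0.05, the smallest change being 0.31 without Pxr-/- PCN replicate 1 (adjusted p = 0.12, limma), and the second Plin2 probe gave 0.20 (adjusted p = 0.28, limma). Markers of several cell types moved in the same comparison. For macrophages 2 of 6 had an adjusted p of at most 0.05 (Cd68 by 0.60 and Csf1r by 0.31). The mean log2 signal of all 6 ranged from 9.95 to 10.51 in Pxr-/- CONT and from 10.44 to 10.73 in Pxr-/- PCN. At that adjusted p were also 2 of 5 neutrophil markers (changes up to 2.91), 2 of 5 of smooth muscle (up to 0.67) and 1 of 5 of endothelium. The part of these cells in the Plin2 value was not tested. In bulk tissue more cells of a type and more RNA per cell cannot be told apart.

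Pdk4, the kinase that turns off glucose oxidation, ranged from 8.07 to 8.78 (median 8.37) in WT CONT, and WT PCN mice gave 8.25, 7.86, 7.48, 9.15 and 8.58. Pxr-/- CONT lay between 8.12 and 8.54 (median 8.48) and Pxr-/- PCN between 7.88 and 8.86 (median 8.28). WT PCN mice spread beyond both ends of the control range. The changes were -0.16 ± 0.22 (SE) and -0.13 ± 0.20 (adjusted p = 0.84 and 0.77, limma).

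Vnn1, a pantetheinase and PPARα target, had the largest change in size of the 33 genes for PCN in WT mice, -0.44 ± 0.15 (SE; 95% interval -0.75 to -0.12), with an unadjusted p of 0.0096 and an adjusted p of 0.21 in limma. WT CONT mice lay between 11.08 and 12.06 and WT PCN mice between 10.77 and 11.42, and in Pxr-/- mice the change was -0.05. Angptl4, a secreted inhibitor of lipoprotein lipase, varied most between mice, from 11.41 to 14.30 within WT CONT alone, and its interval in WT mice ran from -1.14 to 0.34. Ucp2, an inner membrane carrier, gave 0.21 in WT mice and 0.00 in Pxr-/- mice, and its second probe gave 0.28 and 0.16. Fgf21, the PPARα-driven hormone of fasted liver, was well above background on 0 of 23 arrays, with log2 signals between 4.46 and 4.81, and was not tested.

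**Figure D3:**
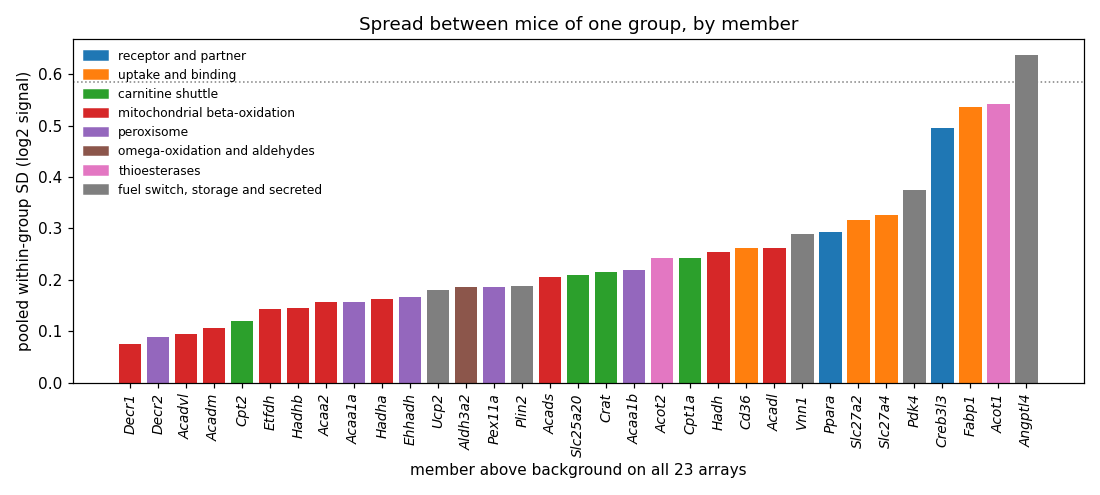
Pooled within-group SD of the log2 signal (y axis, from 0) for the 33 members above background on all 23 arrays (x axis, in rising order, coloured by role). The bars run from 0.08 for Decr1 to 0.64 for Angptl4; the dotted line is the log2 size of a 1.5-fold change, 0.58.

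Without PCN most of the genes had a lower value in Pxr-/- than in WT mice, by small amounts. Of the 33 genes 26 had a difference below 0, where 48.2% of all tested probes did, and their median was -0.15 beside 0.00 for all probes. The count of 26 was the same with median-centred arrays, the deposited table, normexp correction and the processed signal. Those alternatives use the same mice and the same probe of each gene. The second Etfdh probe (0.18) and a further Hadhb probe (0.02) gave values above 0, where the probes used were below 0. The other further probes of members kept their sign. Of the 33 genes 3 had an unadjusted p of at most 0.05, against 8.88% of all tested probes, namely Creb3l3, Acaa2 (-0.26 ± 0.09, SE) and Acot2 (-0.30 ± 0.13), with adjusted p from 0.35 to 0.51 in limma. For 27 of 33 the 95% interval lay inside a 1.5-fold change, a lower share than the 92.4% of all probes. With PCN the median difference between genotypes was 0.00 and 16 of 33 were below 0, against 48.0% of all tested probes, and 1 of 33, Acot2, had an unadjusted p of at most 0.05, against 7.07%. The genotype comparison without PCN and the PCN comparison in Pxr-/- mice share the Pxr-/- CONT arrays, so their values are not independent.

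**Figure D4:**
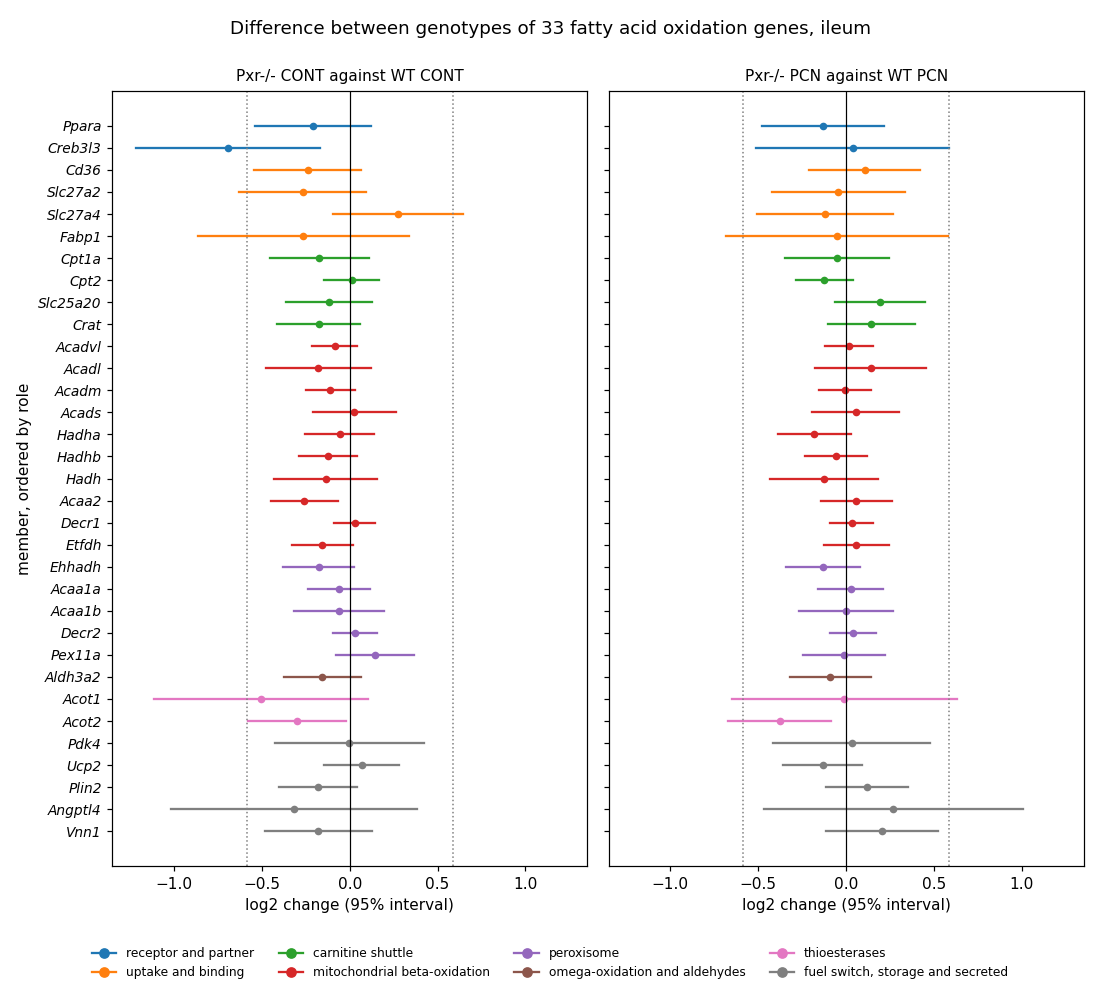
Log2 difference between Pxr-/- and WT mice (x axis, with its 95% interval) for the same 33 members (y axis), without PCN (left) and with PCN (right); dotted lines mark 1.5-fold. On the left 26 of the 33 points lie below 0, and on the right 16 do.

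The interaction, the PCN change in Pxr-/- minus that in WT mice, had a median of 0.08 over the 33 genes, with 27 above 0 against 50.4% of all tested probes. It also equals the genotype difference with PCN minus that without PCN, so this count is not independent of the counts above. Further probes of Etfdh (-0.18), Hadhb (-0.08 and -0.14) and Aldh3a2 (-0.07 and -0.09) gave values below 0. The probes used for these genes gave 0.21, 0.07 and 0.07. Acaa2, the mitochondrial thiolase, was the only member with an unadjusted p of at most 0.05, at 0.32 ± 0.13 (SE; unadjusted p = 0.028, adjusted p = 1.00, limma), where 4.49% of all probes had one. Of 33 intervals 19 lay inside a 1.5-fold change, against 81.3% of all probes, so this comparison was the least precise.

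Mice of one group that had more Ppara signal also had more Hadh signal. Hadh is the short-chain hydroxyacyl-CoA dehydrogenase of mitochondria. On deviations from the group mean over 23 mice, Pearson r was 0.77 (permutation p = 0.0001) and Spearman rho 0.76 (permutation p = 0.00031), with 100000 two-sided permutations within groups. Pearson r was 0.86 among the 11 mice of wash batch 1, 0.68 among the 12 of wash batch 2, and 0.68 without the 2 mice farthest from the Ppara median. Of all 37589 tested probes of other genes, 0.0984% had an r with Ppara at least as high. In a limma fit with Ppara signal, group and wash batch as terms, adjusted over all these probes, Hadh rose by 0.68 ± 0.13 (SE) per log2 unit of Ppara (adjusted p = 0.028), and Acads, the short-chain acyl-CoA dehydrogenase, by 0.50 ± 0.12 (adjusted p = 0.050). These were the 2 of 32 members with an adjusted p of at most 0.05 in that fit, where 0.748% of the probes had one. An unadjusted p of at most 0.05 was found for 7 of 32, against 19.0% of the probes, and 20 of 32 had a positive r, against 50.1%. Hadh was picked for the highest r among the members. In the permutation test of Pearson r, adjusted over the 32 members, 1 had an adjusted p of at most 0.05, Hadh (0.0032). Acads had an r of 0.63, or 0.51 without the same 2 mice, and an adjusted p of 0.10 in that test.

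**Figure D5:**
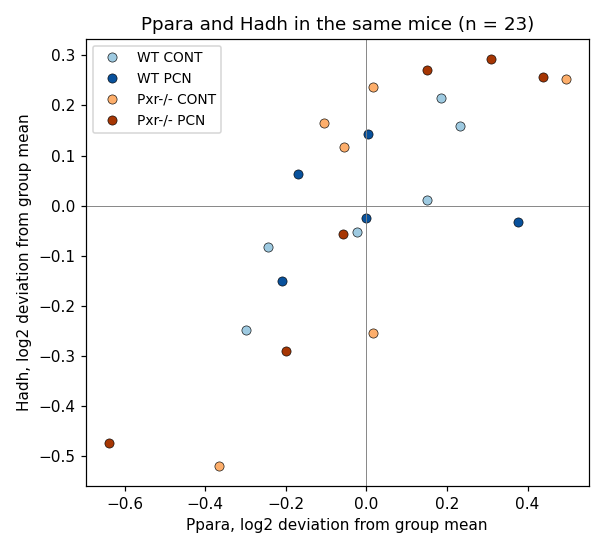
Log2 deviation from the group mean of Hadh (y axis) against that of Ppara (x axis) in the 23 mice, coloured by group. The points rise from lower left to upper right, with a Pearson r of 0.77.

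A wider list of 62 other genes of fatty acid oxidation and PPAR biology, 58 of them tested, held 1 call over all 5 comparisons. Pparg, the PPAR of fat storage, was called higher for PCN in WT mice, 1 of 58 where 0.599% of all tested probes were called higher. It ranged from 10.03 to 10.74 (median 10.49) in WT CONT, and WT PCN mice gave 11.20, 11.55, 10.72, 11.47 and 10.80. All but 1 WT PCN mouse were above every WT CONT mouse. The change was 0.70 ± 0.17 (SE; adjusted p = 0.042, limma), and in Pxr-/- mice it was 0.28 ± 0.16 (adjusted p = 0.36). The difference between these changes did not pass the test. In that comparison all 58 tested genes of the list had an adjusted p of 0.55 or more (limma). The adjusted p rose above 0.05 in 14 of 23 fits without 1 mouse, for example to 0.14 without WT PCN replicate 2 and to 0.12 without WT PCN replicate 4 (limma). Mean signals of the B cell and neutrophil marker lists stood apart in the same comparison. Of the B cell markers 0 of 6 passed the test. Their mean log2 signal lay between 7.01 and 7.36 in WT CONT and between 7.47 and 10.42 (median 7.57) in WT PCN. Of the neutrophil markers 2 of 5, S100a8 and S100a9, had an adjusted p of at most 0.05. The mean of all 5 lay between 7.72 and 8.37 in WT CONT and between 8.58 and 9.71 in WT PCN. The rise was not shared by the whole list. Group means in WT CONT and WT PCN were 6.64 and 6.59 for Mmp9, 15.40 and 15.43 for Csf3r, and 5.14 and 5.73 for Cxcr2, which was near background. The part of either list in the Pparg value was not tested. In the wider list, 3 genes had an adjusted p of at most 0.05 with a change under 1.5-fold. These were Acsl4 for PCN in WT mice (0.46), Ppargc1b for PCN in Pxr-/- mice (-0.45) and Slc22a5 between genotypes with PCN (-0.38). With Pparg this made 2, 1 and 1 of 58 at that adjusted p, where 1.29%, 3.57% and 0.622% of all tested probes had one, so these counts are not a result about the list.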

How the data were processed

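Total RNA (150 ng) of each ileum was labelled with Cy3 and hybridised to 1-colour Agilent mouse arrays, and per the file headers the deposited scanner files hold linear intensity values from Agilent Feature Extraction 10.10.1.1. The authors also deposited a table of log2 values, normalized with limma per the labels, with 37161 probes.

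From the scanner files the median signal was used without background subtraction. Control and outlier spots were left out, spots of a probe were averaged after log2, and the 23 arrays were quantile normalized. The study's value table served as an alternative rather than the main source, so that dim probes such as Cyp4a14 and Fgf21 could be placed. A linear model of 4 groups and wash batch was fitted in limma 3.58.1 (R 4.3.3) over 37591 probes of all 23 arrays, and 5 contrasts were tested, with 95% intervals from the moderated fit. The script was tested on simulated data. The array number limits the precision: 60.9% to 67.3% of probes were well above background, and median signals ranged from 74.0 to 106.5 against a background of 19.0 to 28.5. Arrays of one group correlated at 0.989 to 0.996 over all probes. Arrays came from 8 slides scanned on 1 day.

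All members, the role groups, and the wider gene and marker lists were chosen with earlier results of these data known. Values were given for members called in a contrast and for a fixed 11 whatever they showed, with statistics for the 9 of these that were tested and the signal range for Cyp4a14 and Fgf21. Some genes of the wider list are not reported here. Members named outside that rule, among them Plin2, Creb3l3, Vnn1 and Hadh, were chosen after their values were seen. Probe coordinates are those of the scanner files (mm9). Alternatives were another normalization, signal column, filter, batch or block term, call threshold and probe, and leaving out each mouse. The p-values measure the spread between mice.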

Additional observations from a re-analysis of the deposited data

Results flagged for a closer look

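With 34 members and 4 groups, 136 sets of mice were examined for a value standing far from the rest of its group by Dixon's criterion, and 11 had one (8.09%), where chance gives about 1 in 20. In WT CONT, Cpt1a was highest in replicate 4 at 13.22, with the others between 12.91 and 13.02, and Ehhadh was lowest in replicate 1 at 9.74, with the others from 10.05 to 10.23. In WT PCN, Cd36 was lowest in replicate 3 at 7.09 against 7.47 to 7.62, and Vnn1 was lowest in replicate 4 at 10.77 against 11.29 to 11.42.

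Pxr-/- CONT held 5 of these values. Slc27a2 was lowest in replicate 3 at 9.58 against 10.30 to 10.56. Cpt2 and Hadhb were both highest in replicate 2, at 14.06 against 13.57 to 13.75 and at 13.57 against 13.17 to 13.32. Cyp4a10 was highest in replicate 5 at 7.29 against 4.99 to 5.64, and Pdk4 was lowest in that mouse at 8.12 against 8.40 to 8.54. In Pxr-/- PCN, Slc27a4 was lowest in replicate 1 at 8.45 against 9.03 to 9.29, and Ehhadh was lowest in replicate 6 at 9.86 against 10.13 to 10.29. Replicate 6 of that group was also the lowest for Ppara, at 10.87.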

How the results depend on the processing

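For PCN in WT mice, the interaction and both genotype comparisons, 0 members were called under every alternative tried, leaving out each mouse included. For PCN in Pxr-/- mice the count rose from 0 to 1 with the processed signal scaled to the 75th percentile (Cyp4a10, -1.79, adjusted p = 0.047, limma, on a probe that entered the tests only through Pxr-/- CONT) and to 1 with no fold threshold (Plin2), and it lay between 0 and 1 when single mice were left out (Ppara without Pxr-/- PCN replicate 6). Under the other alternatives it stayed at 0. The replicate block gave 0 members in all 5 comparisons; same-numbered mice of different groups are different animals, their deviations correlated between -0.26 and 0.35, above 0.1 in 5 of 33 pairs, and 6 of 33 correlated best with their own number.

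The Plin2 change in Pxr-/- mice kept its direction everywhere and lost the threshold under 5 of 10 alternatives (adjusted p = 0.11 with median-centred arrays, 0.064 with the processed signal, 0.067 with no filter, 0.088 with the replicate block and 0.11 with only the Pxr-/- groups) and in 13 of 23 fits without 1 mouse, where it ranged from 0.31 to 0.44. Pparg in WT mice lost it under 5 of 10 alternatives and in 14 of 23 such fits. The median over the 33 members turned sign for PCN in WT mice in 3 of 23 fits without 1 mouse, and for the genotypes with PCN in 3 of 10 alternatives and 6 of 23 such fits. The Ppara and Cyp4a10 values above were the 2 of 1471 values of the 9 tested members of the fixed 11 that crossed the threshold, and 58 turned sign, all of changes that were not past it. The causes were not tested. The relation to Ppara adjusted over all probes, and the values for Pparg, for the medians and for members that did not pass the test were computed by a choice made after seeing the data.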
